A study of Caenorhabditis elegans with 4 samples.

Results

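The genes described here encode the mitochondrial respiratory chain and ATP synthase of Caenorhabditis elegans. They were chosen by current gene symbol: all nuo, cox, ucr, cyc, isp, sdha, sdhb, sdhd, atp, asb, asg, gas and mev genes. The gene table held 45 such symbols, and 35 of them had a probe with that symbol, out of 14943 named genes on the array. The other 10 (cox-6B, cox-10, cox-14, cox-16, cox-18, cox-19, nuo-3, sdhb-1, ucr-2.1 and ucr-11) were not analysed here. Total RNA from 4 preps of glp-4 animals at L4, the last larval stage, was hybridised on 4 two-channel arrays, 1 prep per array, and the other channel of each array held RNA of a wild-type mixed-stage reference. Labels give no glp-4 allele, temperature or growth condition, and they call the samples preps without saying whether the cultures were separate, so a p-value here covers only how much the preps varied, which may be technical. Mutants of glp-4, a gene for valyl-tRNA synthetase, are known for a germline that proliferates poorly at the restrictive temperature. Genotype and stage differ together between the channels and cannot be told apart.

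The respiratory chain passes electrons from NADH (complex I) and succinate (complex II) through ubiquinone, complex III, cytochrome c and complex IV to oxygen. The proton gradient built up on the way drives ATP synthase, complex V. Several subunits in C. elegans are encoded by more than 1 gene, and asb-1 is known as the germline form of the ATP synthase b subunit, with asb-2 as the more widely expressed form.

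Values are the deposited log2 ratios, read as glp-4 L4 over reference. The labels do not state this direction. The channel order makes it likely, and every higher or lower below rests on it. A gene was called higher or lower when its mean over preps differed from 0 at a limma adjusted p under 0.05, over 19989 named genes and unnamed probes (items). The median of all items ran from -0.12 to 0.02 over the preps. Of 12 germline markers, 12 were lower, with list medians from -3.78 to -3.09 over the preps, and of 6 sperm markers 5 were lower. Intestinal markers were higher in 6 of 7 and lower in 1 (vit-2), epidermal ones higher in 4 of 5, muscle ones higher in 2 of 7 with 0 lower, and neuronal ones lower in 4 of 6. A probe shared between glp-4 and agef-1 was the only one for glp-4, so the glp-4 transcript could not be read alone. The labelled genotype was not checked against these values.

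The means of 27 of the 35 respiratory chain and ATP synthase genes were above 0, most by less than 1 on the log2 scale, and 8 were below 0. Of the 35 genes, 13 were higher, 4 lower and 18 not called, which is 37.1% higher against 20.6% of all items and 11.4% lower against 24.4% of all items. Preps 3 and 4 share a code in their titles, and with these 2 averaged into 1 value 10 genes were higher and 4 lower, against 17.8% and 19.2% of all items in that fit. The median of the gene means was 0.33, against -0.06 for all items. On single preps the median over the 35 genes was 0.51, 0.18, 0.56 and 0.18 for preps 1 to 4, so preps 1 and 3 were the high ones. On all 4 preps 20 genes were above 0 and 4 below, and 11 had mixed signs; among all items measured on 4 arrays these shares were 26.5% above and 29.6% below. Past a 2-fold change (limma treat) were 0 genes on the higher side and 2 on the lower side, ucr-2.3 and asb-1, against 4.38% and 4.21% of all items. The 4 lower genes were asb-1, ucr-2.3, cyc-2.2 and sdha-2. Each has a paralog among the measured genes, and none of those paralogs was lower. In RNA of whole animals, fewer cells of a type and less RNA per cell cannot be told apart.

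**Figure D1:**
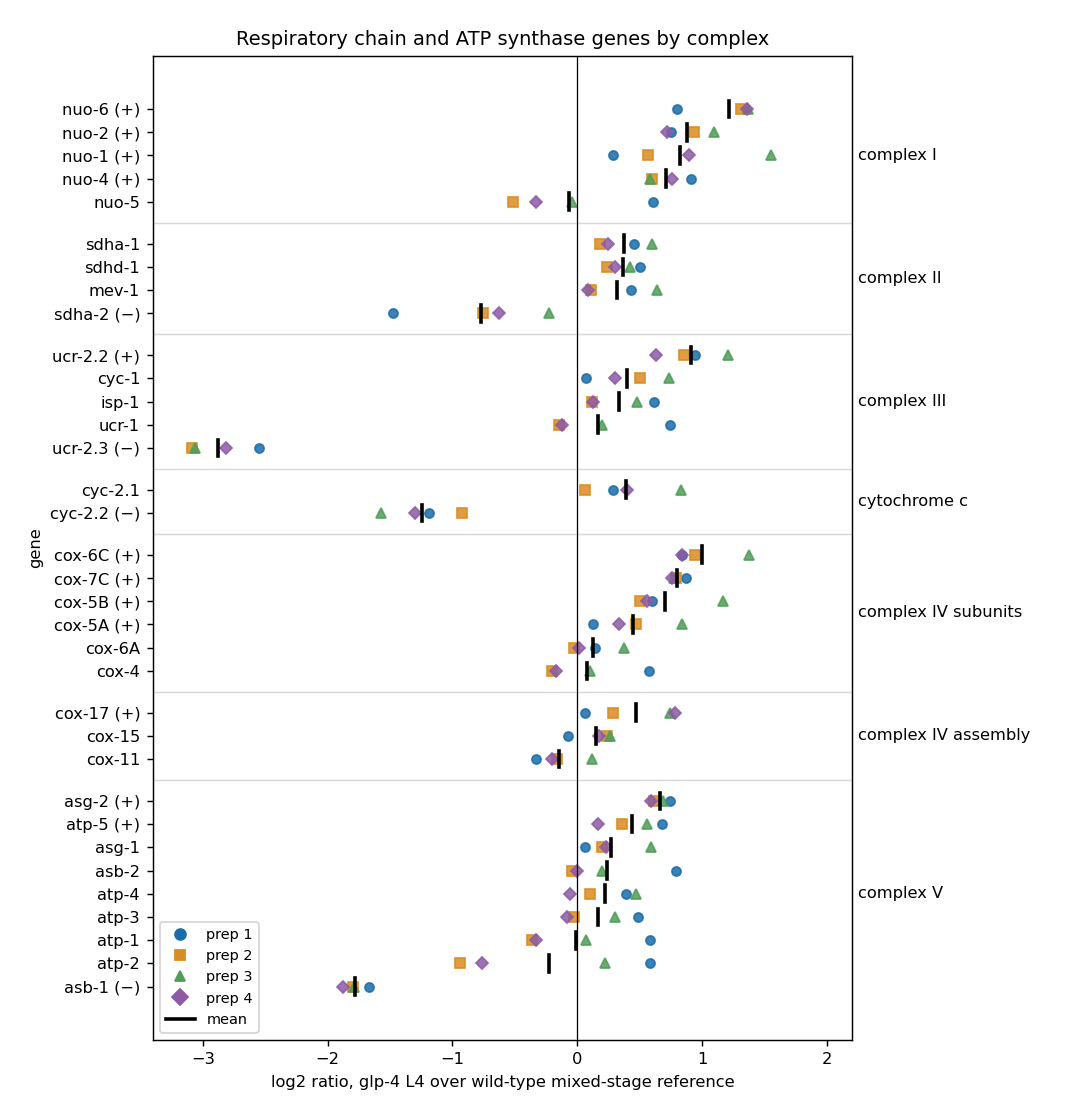
Log2 ratio (horizontal axis, glp-4 L4 over the wild-type mixed-stage reference) of 34 of the measured genes by complex, with 1 symbol per prep and a black bar at the mean; (+) and (−) mark genes called higher and lower. The 4 lower genes sit apart at the bottom of their complexes, and 4 of the 5 complex I genes drawn lie to the right of 0 on every prep.

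Complex I, as chosen by symbol, had the largest share of higher genes, 5 of 6, with a median of 0.85. That is 83.3%, against 20.6% of all items. The accessory subunit gene nuo-6 had log2 ratios of 0.80, 1.32, 1.37 and 1.36 on preps 1 to 4. All were above 0 but prep 1 was low, and the mean was 1.21 ± 0.27 (SD, n = 4; limma adjusted p = 0.00035), a ratio of 2.32. The gene nuo-2, for the core NDUFS3 subunit, had 0.75, 0.94, 1.098 and 0.72, a narrow range around a mean of 0.88 ± 0.18 (limma adjusted p = 0.0012).

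The flavoprotein subunit gene nuo-1, whose product binds NADH, spread widely, with 0.29, 0.57, 1.55 and 0.90 on preps 1 to 4. Its mean was 0.82 ± 0.54 (limma adjusted p = 0.012), and it did not pass without prep 4. The accessory subunit gene nuo-4 had 0.91, 0.60, 0.58 and 0.76, a mean of 0.71 ± 0.16 (limma adjusted p = 0.0032), and here prep 1 was the highest. The exception among these 6 genes was nuo-5, which encodes the iron-sulphur subunit NDUFS1. It had 0.61 on prep 1 and -0.51, -0.04 and -0.33 on preps 2 to 4, and its mean of -0.07 had a 95% interval from -0.52 to 0.38, so the preps lay on both sides of 0.

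Of the 4 measured genes of complex II, 0 were higher and 1, sdha-2, was lower. That is 0% and 25%, against 20.6% and 24.4% of all items. Succinate dehydrogenase, as this complex is also known, belongs to the citric acid cycle as well. Its membrane anchor genes mev-1 and sdhd-1 had means of 0.32 ± 0.27 and 0.37 ± 0.12, above 0 on every prep but not past the threshold (limma adjusted p = 0.12 and 0.053). The flavoprotein subunit, which oxidises succinate, has the paralogous genes sdha-1 and sdha-2. The log2 ratio of sdha-1 was 0.46, 0.18, 0.60 and 0.25 on preps 1 to 4, with a mean of 0.37 ± 0.19 (limma adjusted p = 0.062). That of sdha-2 was -1.47, -0.76, -0.22 and -0.63, below 0 on every prep, with a mean of -0.77 ± 0.52 (limma adjusted p = 0.015). Without moderation of the variances sdha-2 did not pass, and neither did nuo-1 of complex I. With arrays centred on their medians, sdha-1 and sdhd-1 were also called higher.

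In complex III, which hands electrons to cytochrome c, 1 of 5 measured genes was higher and 1 lower, and these were paralogs. That is 20% each, against 20.6% and 24.4% of all items. The core subunit gene ucr-2.2 had 0.94, 0.86, 1.21 and 0.64 on preps 1 to 4, all above 0, with a mean of 0.91 ± 0.24 (limma adjusted p = 0.0013). Its paralog ucr-2.3 had -2.55, -3.08, -3.06 and -2.82, a mean of -2.88 ± 0.25 (limma adjusted p = 4.1e-06), which is a ratio 7.34-fold lower than in the reference. No prep brought the 2 genes near each other, and ucr-2.3 had the most negative mean of the 35 genes. The others were not called: cyc-1 (cytochrome c1) had a mean of 0.40 ± 0.29, isp-1 (the Rieske iron-sulphur protein) 0.33 ± 0.25 and the core subunit gene ucr-1 0.17 ± 0.42. On prep 1, ucr-1 reached 0.74, while preps 2 and 4 were below 0.

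Cytochrome c, the mobile carrier between complexes III and IV, is encoded by cyc-2.1 and cyc-2.2. The log2 ratio of cyc-2.1 was 0.28, 0.07, 0.83 and 0.40 on preps 1 to 4, with a mean of 0.39 ± 0.32 that did not pass (limma adjusted p = 0.078). That of cyc-2.2 was -1.18, -0.92, -1.57 and -1.3004, with a mean of -1.24 ± 0.27 (limma adjusted p = 0.00029), a ratio 2.37-fold lower. The ranges of these genes did not overlap. Prep 3 was the highest for cyc-2.1 and the lowest for cyc-2.2.

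Of the 6 measured subunit genes of complex IV, cytochrome c oxidase, 4 were higher and 0 lower (median 0.58). That is 66.7% and 0%, against 20.6% and 24.4% of all items. The largest mean was that of cox-6C, with 0.84, 0.94, 1.37 and 0.84 on preps 1 to 4 and a mean of 0.999 ± 0.25 (limma adjusted p = 0.00088), a ratio of 1.998. The gene cox-7C had the smallest spread of all 35 genes, with 0.87, 0.79, 0.77 and 0.76 and a mean of 0.80 ± 0.05 (limma adjusted p = 0.0013). The values of cox-5B were 0.60, 0.50, 1.17 and 0.56, of which prep 3 stood high, with a mean of 0.71 ± 0.31 (limma adjusted p = 0.0072), and it did not pass without moderation. The call of cox-5A, at 0.44 ± 0.30 (limma adjusted p = 0.049), was close to the threshold and did not pass without prep 2, 3 or 4, nor with preps 3 and 4 averaged (limma adjusted p = 0.104). Not called were cox-6A at 0.13 ± 0.18, whose 2 probes had means of 0.17 and 0.08, and cox-4 at 0.08 ± 0.36.

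Among the 3 measured assembly genes of complex IV, 1 was higher (33.3%, against 20.6% of all items). That was cox-17, a copper chaperone, at 0.47 ± 0.35 (limma adjusted p = 0.0498), which did not pass without prep 2, 3 or 4, nor with preps 3 and 4 averaged (limma adjusted p = 0.164). Heme A synthase, cox-15, had a mean of 0.15 ± 0.15, and cox-11, which delivers copper to the oxidase, had -0.14 ± 0.19. Neither was called, and each had preps on both sides of 0.

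**Figure D2:**
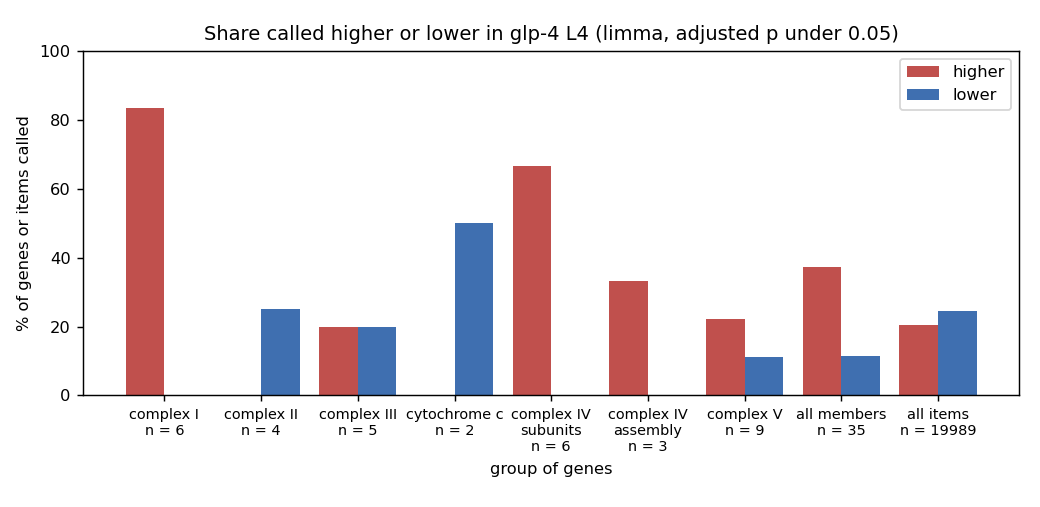
Percentage of measured genes called higher (red) or lower (blue) in each complex, over all 35 genes and over all 19989 items (limma, adjusted p under 0.05), with the number of genes under each pair of bars. Complex I (5 of 6) and complex IV subunits (4 of 6) have the tallest bars for higher genes, and all items stand at 20.6% higher and 24.4% lower; classes hold few genes, so a bar can move far with 1 gene.

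Of the 9 measured genes of complex V, which makes ATP, 2 were higher (22.2%, against 20.6% of all items) and 1 was lower (11.1%, against 24.4%), with a median of 0.23. The catalytic head genes atp-1 (alpha) and atp-2 (beta) were not called. The log2 ratio of atp-2 was 0.58 on prep 1, -0.94 on prep 2, 0.22 on prep 3 and -0.76 on prep 4, a mean of -0.23 ± 0.74, the widest spread of the 35 genes. The values of atp-1 followed the same order of preps, with 0.58, -0.36, 0.07 and -0.33 and a mean of -0.01 ± 0.44, where the sign depends on the processing: the mean was 0.04 with arrays centred. In the stalk, atp-3 (the oligomycin sensitivity protein) had 0.17 ± 0.27 and atp-4 (coupling factor) 0.23 ± 0.25, also not called. The stalk subunit d gene, atp-5, was called at 0.44 ± 0.23 (limma adjusted p = 0.038), and did not pass when any 1 of the preps was left out, nor with preps 3 and 4 averaged (limma adjusted p = 0.057).

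The b subunit, part of the peripheral stalk that holds the head still, had the lower gene of complex V. The germline form asb-1 had log2 ratios of -1.67, -1.80, -1.79 and -1.88 on preps 1 to 4. These values lay close together, with a mean of -1.78 ± 0.09 (limma adjusted p = 2.2e-05), a ratio 3.44-fold lower than in the reference. For asb-2 the values were 0.79, -0.04, 0.20 and -0.001, at 0.20 or below on 3 preps and higher on prep 1, and the mean of 0.24 ± 0.38 was not called (limma adjusted p = 0.30), with a 95% interval from -0.16 to 0.63. Within arrays, asb-1 minus asb-2 was -2.45, -1.75, -1.98 and -1.88, with a mean of -2.02 ± 0.31 (n = 4). An exact permutation test that flips the signs of these differences, two-sided, gave p = 0.125, the lowest value it can reach with 4 preps. The ratio of asb-1 was thus 4.05-fold below that of asb-2, and it was lower in 4 of 4 preps. This is a difference of ratios to the reference and says nothing of which transcript was more abundant.

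The g subunit, which sits in the membrane part, also has a pair of genes, and neither was lower. The log2 ratio of asg-1 was 0.06, 0.20, 0.59 and 0.23 on preps 1 to 4, with a mean of 0.27 ± 0.23 that was not called. That of asg-2 was 0.74, 0.62, 0.69 and 0.59, with a mean of 0.66 ± 0.07 (limma adjusted p = 0.0037), and its 2 probes had means of 0.75 and 0.57.

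Paralogs of 1 subunit were compared within arrays in all 5 pairs for which both genes were measured. The same gene of each pair was the lower one in 4 of 4 preps. How often other pairs of genes keep 1 order on all 4 arrays was not counted. Of single items, 26.5% were above 0 and 29.6% below 0 on all 4 arrays. The difference was largest for ucr-2.2 minus ucr-2.3, at 3.79 ± 0.39 on the log2 scale, a 13.8-fold difference of ratios, with preps from 3.45 to 4.27. For cyc-2.1 minus cyc-2.2 it was 1.64 ± 0.59, with preps from 0.99 to 2.40. For sdha-1 minus sdha-2 it was 1.14 ± 0.53, where prep 1 had 1.93 and the others 0.83 to 0.94. The smallest was asg-1 minus asg-2, at -0.39 ± 0.24, with preps from -0.68 to -0.10. Each of the 5 pairs had p = 0.125 by the same exact permutation test (n = 4; 0.125 after Benjamini-Hochberg adjustment over the pairs), which this design cannot go below, so no pair could pass. Probe sequences were not used here, and how far a probe binds the transcript of the paralog is unknown. Germline markers were lower, as asb-1, ucr-2.3, cyc-2.2 and sdha-2 were (12 of 12 lower, means from -4.91 to -1.72). The means of asb-1 and ucr-2.3 lay within that range, and those of cyc-2.2 and sdha-2 did not. The part of the germline in these ratios was not tested.

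**Figure D3:**
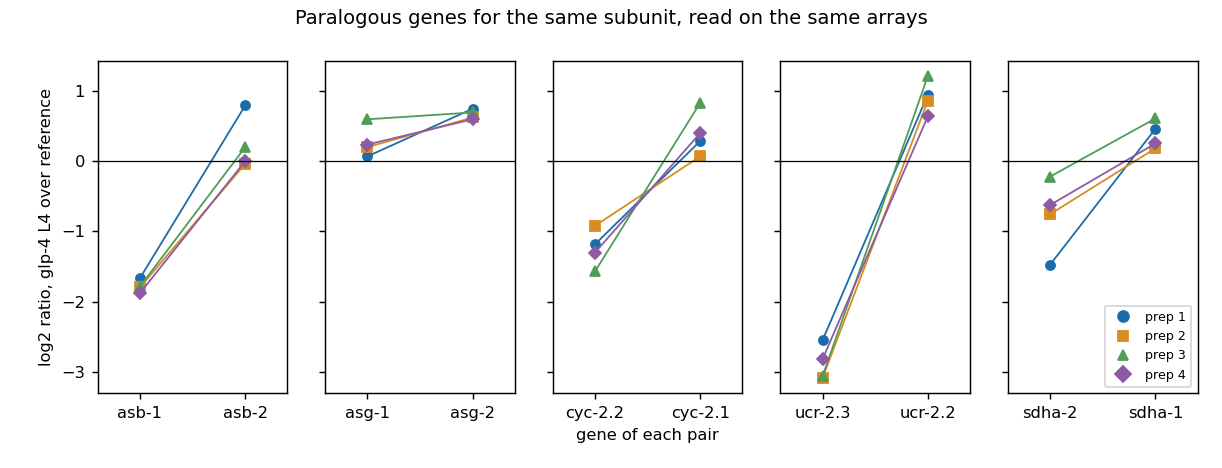
Log2 ratio (vertical axis, glp-4 L4 over reference) of both genes of 5 paralog pairs, with 1 line per prep joining the values read on the same array. The gene with the lower mean was placed on the left in each pair, so a rise on average is by construction. Lines rise on each single prep as well. The left gene lies below 0 on all preps in 4 pairs, and both asg genes lie above 0.

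By chromosome, in the RefSeq gene table of assembly WBcel235, the 5 measured genes on X included asb-2, asg-2, sdha-1 and ucr-2.2. Their median was 0.66, with 3 higher and 0 lower. The 30 autosomal genes had a median of 0.29, with 10 higher and 4 lower. Over all named genes the median was 0.12 on X and -0.04 on the autosomes. Of the named genes on X, 32.4% were higher and 16.2% lower, against 21.8% and 25.5% on the autosomes. In 4 of the 5 pairs (asb, asg, ucr-2 and sdha) the gene with the higher ratio was on X and the other on an autosome, I or III, while cyc-2.1 and cyc-2.2 are on IV and V.

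The spread between preps was not the same for all genes. Prep 1 had the highest of the 4 values for 15 genes and the lowest for 11, prep 3 the highest for 18, and preps 2 and 4 the highest for 1 each. The highest value was thus on prep 1 for 42.9% of the genes and on prep 3 for 51.4%, against 2.86% each for preps 2 and 4. Among all items on 4 arrays, the highest value was on preps 1 to 4 for 29.8%, 19.8%, 31.3% and 19.1%. Prep 1 was the lowest for 31.4% of the genes and 35.5% of those items. Prep 1 lay furthest above the mean of the other preps for atp-2 (by 1.07), nuo-5 (0.90), atp-1 (0.79), ucr-1 (0.77), asb-2 (0.74) and cox-4 (0.67), none of which was called. Genes for which it lay below that mean included sdha-2 (by -0.94), nuo-1 (-0.72) and nuo-6 (-0.55). These genes were picked out after their values were seen. Body wall muscle markers were highest on prep 1 for 4 of 7 and lowest there for 2. Their list medians were 0.95 on prep 1 and 0.04 to 0.25 on the others. Intestinal markers also had their highest list median on prep 1, at 2.07, against 0.73 to 1.32 on the others. The germline median was highest on prep 1 too, while sperm, epidermal and neuronal medians were highest on preps 2, 4 and 3. The part of any of these cell types in this pattern was not tested.

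**Figure D4:**
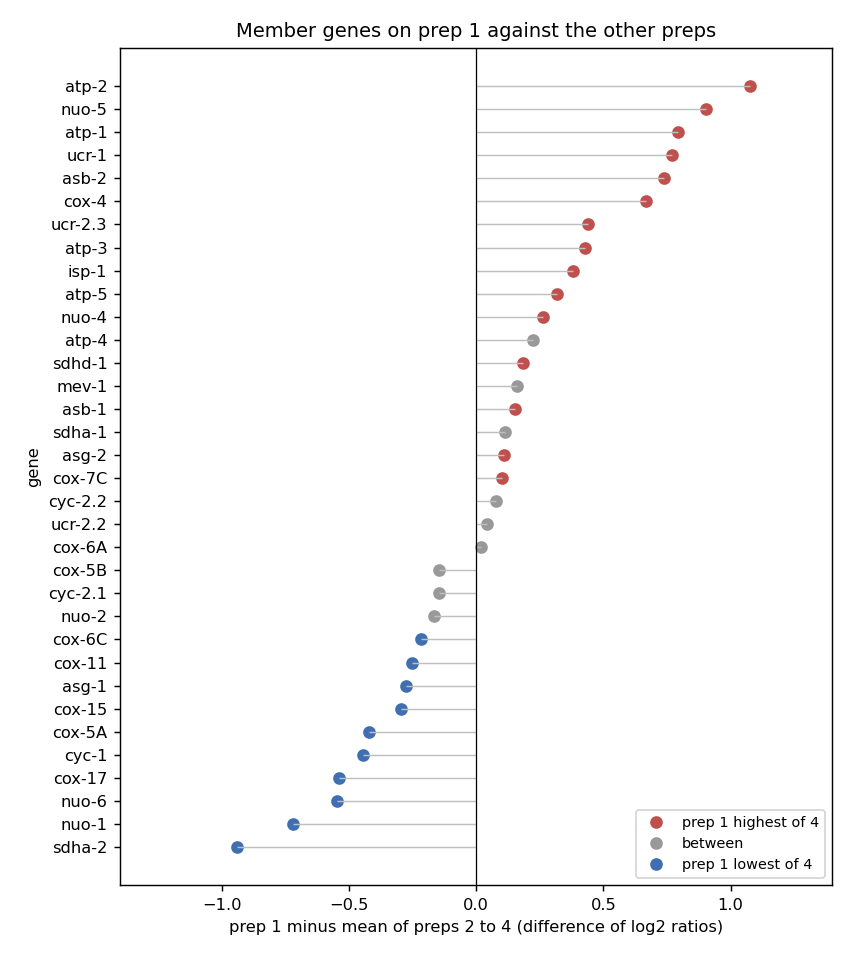
Log2 ratio on prep 1 minus the mean of preps 2 to 4 (horizontal axis) for 34 of the genes, sorted; red marks genes for which prep 1 was the highest of the 4 values (15 genes), blue those for which it was the lowest (10), grey the others. The gene atp-2 is at the top at 1.07 and sdha-2 at the bottom at -0.94.

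Of 67 genes in 5 further lists of mitochondrial genes, 47 were measured. Of these, 18 were higher and 6 lower (38.3% and 12.8%, against 20.6% and 24.4% of all items). Their median was 0.16, against -0.06 for all items. The shares of all items apply to each list below as well, and single lists hold few genes. Of 24 further genes of the respiratory chain and ATP synthase, 9 were measured, without any of the listed ctb, ctc, nduo and ndfl genes. Among these 9 genes, 5 were higher and 1 lower. The highest was hpo-18, the epsilon subunit of ATP synthase, at 1.06 ± 0.27 (limma adjusted p = 0.00071), and the lowest the ATP synthase inhibitor gene mai-1 at -0.64 ± 0.20 (limma adjusted p = 0.0067). Its paralog mai-2 was higher, at 0.68 ± 0.22 (limma adjusted p = 0.0054), and was named after its value was seen. Complex I genes of this list were split, and were also named after their values were seen. The genes nduf-2.2 and nduf-6 were higher, with means of 0.77 and 0.83. Not called were nduf-7 and nduf-11, with means of 0.15 and 0.07.

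Of 7 genes of ubiquinone synthesis, which makes the lipid carrier between complexes I, II and III, 1 was higher (coq-8, at 0.67 ± 0.32, limma adjusted p = 0.0097, not called without prep 2) and 0 lower, and coq-2 was the lowest at -0.24 ± 0.34. Of 4 inner membrane carriers, 0 were higher and 1 lower, the ADP/ATP translocase gene ant-1.3 at -0.95 ± 0.37 (limma adjusted p = 0.0022), and ucp-4 was the highest at 0.24 ± 0.20. Of 18 genes of the citric acid cycle and pyruvate dehydrogenase, 8 were higher and 2 lower. They ran from idhg-1, an isocitrate dehydrogenase subunit, at -0.85 ± 0.27 (limma adjusted p = 0.0023), to suca-1, a succinyl-CoA ligase subunit, at 1.70 ± 0.20 (limma adjusted p = 4.0e-05). Of 9 genes of import and chaperones, 4 were higher and 2 lower. They ran from hsp-6, the mitochondrial Hsp70, at -0.87 ± 0.23 (limma adjusted p = 0.0016), to the import gene tomm-7 at 1.08 ± 0.23 (limma adjusted p = 0.00051).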

How the data were processed

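Each deposited value is a log2 ratio between the 2 channels of an array. That the base is 2 follows from the values themselves, since 2 raised to them gave whole thousandths (within 0.01) for 100% of values with a ratio under 20. How the authors corrected background, normalized dyes and filtered spots is not given in the sources used, intensities were not used, and precision is limited by the number of arrays, 4. Of 21632 probes, 16450 had 1 gene symbol after updating the platform annotation, which can be old, to the RefSeq table of WBcel235 (16360 by gene ID, 8 by accession, 82 by symbol), 247 had several and 4935 none here. Probes of a gene were averaged per array. For items on at least 3 arrays, limma 3.58.1 (R 4.3.3) tested the mean against 0 (lmFit, eBayes, two-sided, Benjamini-Hochberg over 19989 items), and against 2-fold with treat. The reference, the sole counterpart, enters each ratio and has no samples of its own, so these tests cannot judge its spread apart. The limma fit was tested on simulated data with independent normal noise. Named were all called members, the highest and lowest of each class and list, and the paralog pairs, apart from 1 member that is counted but not reported here. Members and lists were chosen with earlier results of these data known. Alternatives were centring, scaling, items on all arrays, each prep left out, preps 3 and 4 averaged (their titles share a code), no moderation, a stricter threshold, 1 probe per gene, and every sign turned. The median without the lower genes was added after seeing the data.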

Additional observations from a re-analysis of the deposited data

Results flagged for a closer look

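Of 47 sets of 4 values examined (35 genes, 7 class medians and 5 paralog differences), 3 had 1 prep far from the others by Dixon's ratio, and chance flags about 1 in 20. For nuo-6, prep 1 had 0.80 against 1.32 to 1.37 on the other preps. For cox-5B, prep 3 had 1.17 against 0.50 to 0.60. For sdha-1 minus sdha-2, prep 1 had 1.93 against 0.83 to 0.94.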

How the results depend on the processing

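The count of 13 higher genes was 8 without variance moderation. There nuo-1 and cox-5B were among those not called, and sdhd-1 was newly called. That of 4 lower genes was 3, where sdha-2 was not called. For the other mitochondrial genes these counts went from 18 to 7 and from 6 to 3. At a limma adjusted p under 0.01, 9 of the 35 genes were higher and 3 lower (sdha-2 was not called). With 1 probe per gene, 11 were higher (cox-5A and cox-17 were not called) and 4 lower. With preps 3 and 4 averaged, 10 genes were higher (cox-5A, cox-17 and atp-5 were not called) and 4 lower, and 16 and 4 of the other mitochondrial genes. Leaving out a prep gave 9 to 13 higher genes, 4 lower ones each time and medians from 0.25 to 0.39, and the median without the 4 lower genes was 0.37. Of the 13 higher genes 9 were called in each of the 4 leave-outs. The 4 lower genes were too. Shares of all items were not counted without moderation, at the stricter threshold, with 1 probe per gene or with a prep left out. A general loss of calls there cannot be told from a loss among these genes. Turning every sign swaps the sides by construction: 4 higher and 13 lower genes, 6 and 18 for the other mitochondrial genes, a median of -0.33, and paralog differences of 2.02 (asb-1 minus asb-2), 0.39 (asg-1 minus asg-2), -1.64 (cyc-2.1 minus cyc-2.2), -3.79 (ucr-2.2 minus ucr-2.3) and -1.14 (sdha-1 minus sdha-2). No called gene changed sign under the other alternatives. Uncalled ones near 0 did: atp-1 had 0.042 with arrays centred, 0.057 also scaled and 0.031 with preps 3 and 4 averaged. Leaving out a prep gave -0.21 to 0.11 for atp-1, -0.49 to 0.013 for atp-2, -0.29 to 0.081 for nuo-5, -0.025 to 0.27 for ucr-1 and -0.091 to 0.17 for cox-4. The cause was not tested. No pairing of samples between groups was possible because the arrays hold 1 group, and only paralogs were paired, within arrays.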

Other observations

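Some further paralogs outside the respiratory chain list also lay on opposite sides of the reference, picked out after their values were seen. The ATP synthase inhibitor genes mai-1 and mai-2 differed by -1.32 ± 0.16 (mai-1 minus mai-2, SD, n = 4), with -1.51, -1.18, -1.39 and -1.198 on preps 1 to 4. The isocitrate dehydrogenase gamma subunit genes idhg-1 and idhg-2 had means of -0.85 ± 0.27 and 1.04 ± 0.21 (limma adjusted p = 0.0023 and 0.00057). Other paralogs had means on the same side of 0. Means were 0.67 and 0.13 for timm-17B.1 and timm-17B.2, and -0.55, -0.03 and -0.95 for ant-1.1, ant-1.2 and ant-1.3. In the citric acid cycle, the succinyl-CoA ligase genes suca-1, sucl-1 and sucl-2 were higher, at 1.70 ± 0.20, 0.76 ± 0.36 and 0.95 ± 0.41, while sucg-1, another gene of that enzyme, had -1.25, 0.003, 0.27 and -0.23 on preps 1 to 4 and was not called. Prep 1 was the highest for 9 of 17 genes of the citric acid cycle list measured on 4 arrays, among them cts-1 (0.92 on prep 1), dlst-1 (0.69) and dld-1 (0.67).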
